A study of Mus musculus with 24 samples.

Results

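The 10 genes described here, Nqo1, Hmox1, Gclc, Gclm, Txnrd1, Srxn1, Slc7a11, Gsr, Me1 and G6pdx, are redox defence genes known as targets of the transcription factor NRF2. They were chosen by symbol, through the mouse Ensembl identifiers of the GENCODE M21 annotation, and are 10 of the 55471 genes quantified. The study set F-PRT against S-PRT in a mouse sarcoma model, and polyA RNA of skin and of bone was sequenced as read pairs of 150 bp. F-PRT and S-PRT are read here as FLASH and standard proton radiotherapy, the FLASH form being delivered at a far higher dose rate. Each tissue had 4 libraries of F-PRT animals, 4 of S-PRT animals and 4 of Untreated animals, 24 libraries in all, labelled as biological replicates. The donors of all 6 groups were female mice of 10 weeks. The labels state no strain, genotype, radiation dose, time after irradiation or site of the tissue relative to the sarcoma. Labels do not say whether the animals were pooled or whether skin and bone came from the same animals.

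NRF2, encoded by Nfe2l2, is held at a low level by KEAP1, which presents it for degradation. Electrophiles and oxidants modify KEAP1, NRF2 accumulates, pairs with a small MAF protein and binds antioxidant response elements in its target genes, a site that BACH1 can occupy as a repressor. The targets rebuild glutathione and thioredoxin, supply NADPH for both, and detoxify quinones and haem. Ionising radiation generates reactive oxygen species, and glutathione is among the main scavengers of such radicals in skin and in bone marrow.

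Totals ran between 10909700 and 22088370 expected counts per library, and all 10 genes passed the filter on low counts in both tissues. The lowest expected counts of single libraries were 49 for Slc7a11 in bone, 74 for Nqo1 in skin and 113 for Me1 in bone, and those 3 genes carry the widest counting error. Of 10 p53 target genes, 9 rose in skin and 7 in bone after F-PRT, and as many after S-PRT. Of all genes tested, 191 of 19038 rose in skin and 2925 of 18848 in bone after F-PRT, and 348 and 2512 after S-PRT. The p53 list was chosen with earlier results of these data known, so it is no independent check of irradiation. Both tissues carried their own markers: the summed level of 10 osteoblast and osteocyte markers was 15.4 to 21.2 CPM (expected counts scaled to library size with TMM factors) in skin and 1200 to 2690 CPM in bone, with Ibsp and Mepe at 0 in all skin libraries. 5 libraries stood apart. Library 4 of S-PRT skin had 344 CPM of summed fibroblast markers, against 3920 to 5190 CPM in the other S-PRT skin libraries. Library 1 of Untreated skin and library 1 of Untreated bone had the highest shares of structural noncoding RNA, at 15.937% and 17.087%. Library 2 of F-PRT bone held 218 CPM of summed differentiated keratinocyte markers, against 3.95 to 6.83 CPM in Untreated bone. The sum was 2.23 CPM in F-PRT 1, 38.9 CPM in F-PRT 3, 69.8 CPM in F-PRT 4 and 35.3 CPM in S-PRT 4. Of 9 such markers tested in bone, 9 rose after F-PRT (median log2 5.11) and 0 after S-PRT (median log2 2.39). Library 3 of F-PRT bone also had the fewest osteoclast markers of its group, at 1530 CPM against 2800 to 3790 CPM in the others. The share of structural noncoding RNA also differed between the groups. In skin it was 8.656 to 10.387% after F-PRT and 5.454 to 12.4% after S-PRT, against 12.022 to 15.937% in Untreated skin. In bone it was 5.31 to 6.876% and 6.66 to 7.651%, against 7.904 to 17.087% in Untreated bone. No irradiated bone library and no F-PRT skin library reached the Untreated range, and the part of this share in the differences from Untreated tissue was not tested. Calls of the 10 genes that changed without these 5 libraries are given both ways. Library 1 of S-PRT skin was kept in those fits. It held 1250 CPM of summed hair follicle markers, against 15.5 to 233 CPM in the others of its group. Its skeletal muscle markers summed to 14200 CPM, against 401 to 2700 CPM in the others.

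Promoter windows of 250 bases before to 50 after the annotated start were taken from RefSeq (GRCm38.p6), and 7 of the 10 genes had at least 1 window there. They were searched on both strands for TGACNNNGC, the core of the antioxidant response element that NRF2 binds, and for TGATGNAA, the core of the amino acid response element bound by ATF4 with C/EBP factors. The 7 genes had 10 windows, since some have several starts. The first motif stood in 5 of the 10 windows, 1 in each of 5 genes, and in 12.4% of all 32851 windows, and the second in 1 of the 10 and in 3.97% of all windows. The matched stretches of Slc7a11, Gclm, Me1 and Txnrd1 are shown because these genes passed the test in at least 1 tissue. That of G6pdx is shown as an example of a gene with the first motif that did not pass. Srxn1, whose stretch is not shown, also held that motif without passing. Each is 5′ to 3′ on the strand of its gene, with the match in capitals.
Slc7a11: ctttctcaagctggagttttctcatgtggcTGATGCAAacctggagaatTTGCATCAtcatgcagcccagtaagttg
Gclm: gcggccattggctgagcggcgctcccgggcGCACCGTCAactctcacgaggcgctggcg
Me1: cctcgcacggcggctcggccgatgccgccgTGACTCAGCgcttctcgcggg
Txnrd1: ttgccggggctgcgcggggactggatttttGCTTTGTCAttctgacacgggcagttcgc
G6pdx: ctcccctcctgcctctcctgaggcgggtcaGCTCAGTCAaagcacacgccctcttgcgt
The Slc7a11 stretch lies at chr3:50443633-50443709 on the minus strand and holds TGATGNAA on both strands between -66 and -40 of the start. No TGACNNNGC stood in the Slc7a11 window. The Gclm stretch is chr3:122245393-122245451 on the plus strand, and the Me1 stretch is chr9:86695900-86695950 on the minus strand, with its match across the start itself. The Txnrd1 stretch is chr10:82859084-82859142 on the plus strand and the G6pdx stretch is chrX:74428909-74428967 on the minus strand. In Gclm, Txnrd1 and G6pdx the match reads on the strand opposite to the gene. Srxn1 had its match after the start, and the Nqo1 window held neither motif. A match is a description of letters, not evidence of binding in these samples.

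In GENCODE M21 on GRCm38, Nqo1 (ENSMUSG00000003849) lies at chr8:107388225-107403206 on the minus strand, Hmox1 (ENSMUSG00000005413) at chr8:75093621-75100589 and Gsr (ENSMUSG00000031584) at chr8:33652523-33698163, both on the plus strand. Chromosome 9 holds Gclc (ENSMUSG00000032350) at chr9:77754535-77794485 on the plus strand and Me1 (ENSMUSG00000032418) at chr9:86581371-86695953 on the minus strand. Gclm (ENSMUSG00000028124) lies at chr3:122245557-122270732 on the plus strand and Slc7a11 (ENSMUSG00000027737) at chr3:49892526-50443614 on the minus strand. Txnrd1 (ENSMUSG00000020250) is at chr10:82833951-82897712 and Srxn1 (ENSMUSG00000032802) at chr2:152105516-152111376, both on the plus strand, and G6pdx (ENSMUSG00000031400) is at chrX:74409483-74429194 on the minus strand. The values below are sums over all transcripts of a gene. Annotated genes or pseudogenes overlap Gclm, Txnrd1, Slc7a11, Gsr, Me1 and G6pdx and could share reads with them.

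The levels of the genes differed widely within a tissue. On the deposited TPM scale, which is per transcript length, Hmox1, the haem oxygenase that breaks haem down to biliverdin, carbon monoxide and iron, was the highest of the 10 in F-PRT bone at 390 ± 95.7, in S-PRT bone at 348 ± 115 and in Untreated bone at 124 ± 74.1 TPM (SD, n = 4 each), where its libraries overlapped those of Gsr. Behind Hmox1 in F-PRT bone came Gclm, Gsr, G6pdx, Gclc, Txnrd1, Me1, Srxn1, Nqo1 and, at 0.883 TPM, Slc7a11. In that order Gclm and Gsr, Gclc and Txnrd1, and Me1 and Srxn1 overlapped between neighbours. In Untreated skin Me1 came first at 56.2 TPM, followed by Hmox1, Txnrd1, G6pdx, Gclm, Gsr, Srxn1, Gclc, Nqo1 and Slc7a11, with overlap between every pair of neighbours except Gclc and Nqo1. Slc7a11 was last in every group of both tissues.

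**Figure D1:**
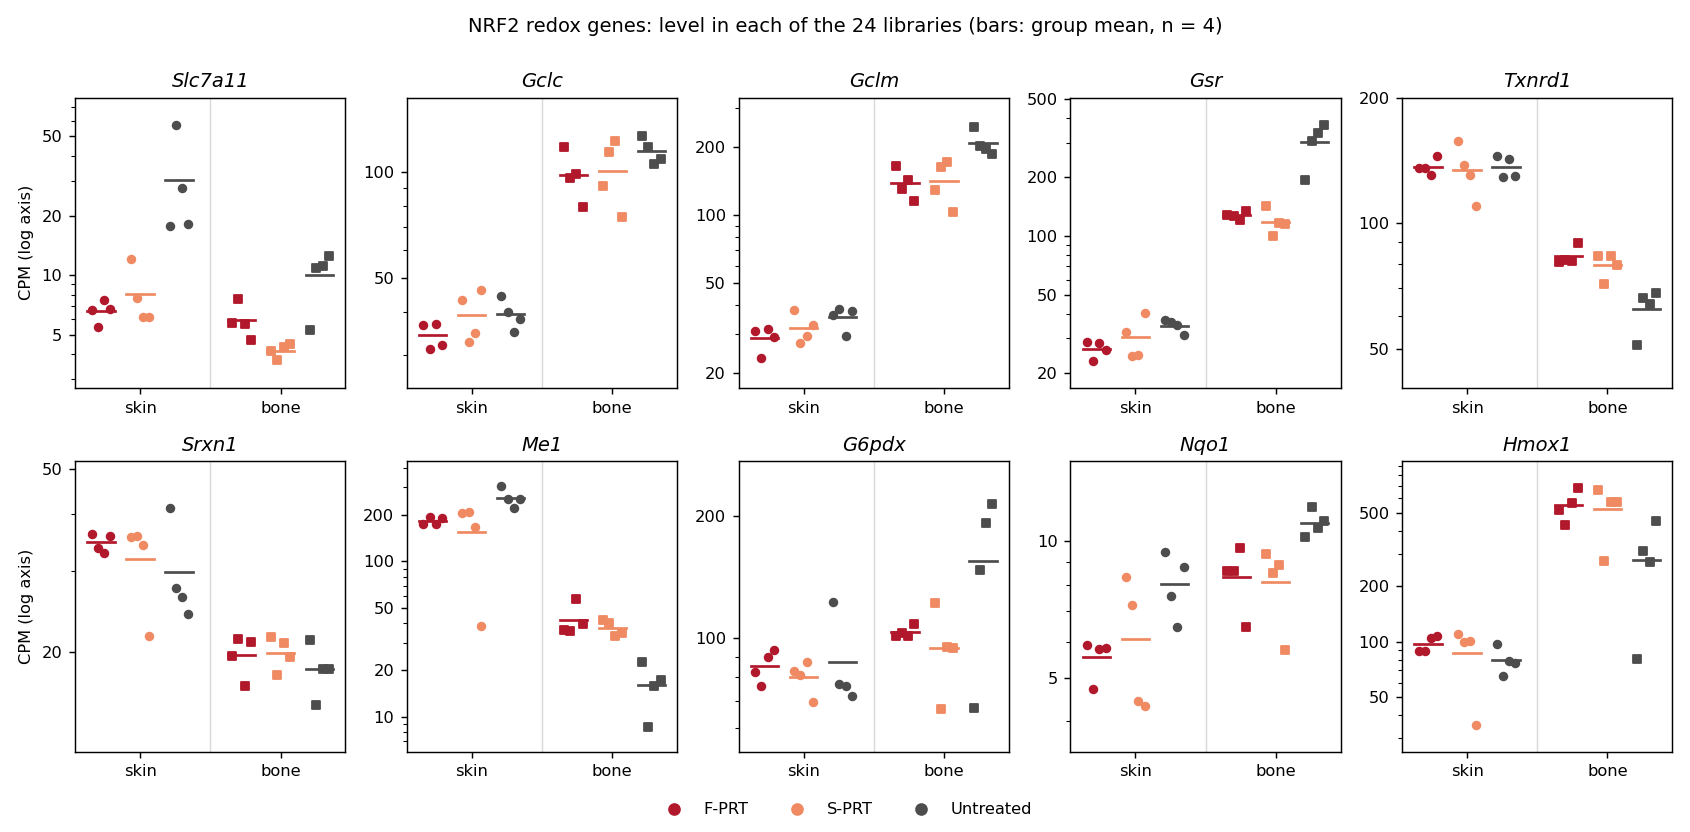
TMM-scaled CPM of the 10 genes in every library, on a log axis, with 1 panel per gene and the groups F-PRT, S-PRT and Untreated for skin and for bone. Points are libraries and bars are group means; Slc7a11 in skin lies between 5.47 and 12.1 CPM in irradiated libraries and between 17.8 and 57.0 CPM in Untreated libraries.

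Irradiated tissue was first set against Untreated tissue of the same kind. A gene passed the test at a Benjamini-Hochberg adjusted p under 0.05 in edgeR. In skin, 1 of the 10 genes passed after F-PRT and the same gene after S-PRT, Slc7a11, which fell after both. In bone 5 of 10 passed after each treatment: Me1 and Txnrd1 rose, and Gsr, Gclm and Slc7a11 fell relative to the median gene, a fall that on the TPM scale did not pass for Gsr and Slc7a11 and turned to a small positive difference for Gclm. Of all genes tested, 2.39% passed in skin F-PRT, 4.34% in skin S-PRT, 32.7% in bone F-PRT and 28.5% in bone S-PRT. Without library 4 of S-PRT skin, whose spread enters the shared fit, 1477 and 2270 genes passed in skin F-PRT and S-PRT, against 455 and 827 with it. Read against those shares, a single skin gene is a small count, and 5 of 10 in bone stands not far above a background that is itself high. The median log2 difference of the 10 genes was -0.25 after F-PRT and -0.13 after S-PRT in skin, and -0.31 after each in bone, against -0.02, 0.00, -0.01 and -0.01 over all genes tested. F-PRT and S-PRT were compared with the same Untreated libraries, so their values are not independent of each other. Several genes below had irradiated libraries wholly apart from the Untreated ones. The share of all genes set apart in this way was not counted, so such a separation has no background. In bulk tissue, fewer cells of a type and less RNA per cell cannot be told apart.

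**Figure D2:**
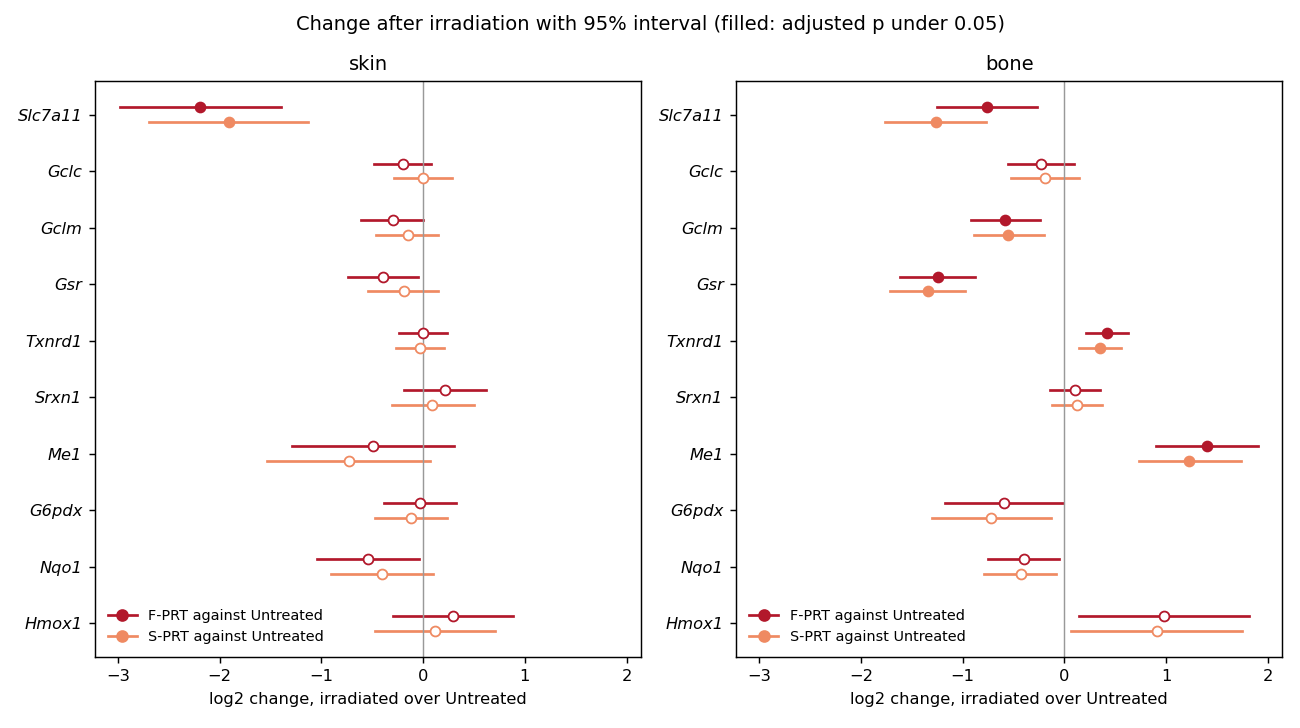
Log2 difference of each of the 10 genes between irradiated and Untreated tissue, with its 95% interval, for F-PRT and S-PRT in skin and in bone. Filled points passed an adjusted p of 0.05 in edgeR; Slc7a11 lies furthest below 0 in skin, and Me1 above 0 in bone.

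Slc7a11 encodes the xCT subunit of the cystine and glutamate exchanger, which imports the cystine from which glutathione is built, and was the gene that fell in every comparison with Untreated tissue. In skin it measured 6.66, 5.47, 7.54 and 6.73 CPM in the F-PRT libraries, 12.1, 7.69, 6.16 and 6.15 CPM in the S-PRT libraries and 17.8, 57.0, 27.5 and 18.2 CPM in the Untreated libraries. Every irradiated library lay below every Untreated library, and library 2 of Untreated skin was the highest by a wide margin. Means were 6.60 ± 0.852 CPM after F-PRT and 8.01 ± 2.79 CPM after S-PRT, against 30.1 ± 18.5 CPM in Untreated skin (SD, n = 4 each). The log2 difference was -2.19 (SE 0.36, 95% interval -2.98 to -1.40) for F-PRT, with an edgeR adjusted p of 0.00695, and -1.91 (SE 0.36, 95% interval -2.69 to -1.13) for S-PRT, with an edgeR adjusted p of 0.00992. Those are 0.219 and 0.267 of the Untreated level. Without the libraries that stood apart the differences were -2.36 (adjusted p = 0.00225) and -1.96 (adjusted p = 0.00556). Neutrophil markers in skin were low throughout, with 4 of 12 tested and 2 fallen after each treatment, and summed to 9.96 to 13.8 CPM after F-PRT and 7.26 to 12.2 CPM after S-PRT, against 21.6 to 49.8 CPM in Untreated skin, the highest in library 2. Their part in the Slc7a11 fall was not tested. On the log2(TPM + 1) scale in limma, which understates changes of low genes, the Slc7a11 differences were -1.06 and -0.88. They did not pass there, at adjusted p = 0.0951 and 0.125. The S-PRT call also ended with only the 8 libraries of S-PRT and Untreated skin in the fit, at a like difference of -1.87 (adjusted p = 0.0668).

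In bone Slc7a11 was at 5.76, 7.61, 5.66 and 4.73 CPM after F-PRT, 4.17, 3.73, 4.34 and 4.49 CPM after S-PRT, and 5.32, 10.9, 11.2 and 12.5 CPM in Untreated animals. All S-PRT libraries lay below all Untreated ones, whereas library 1 of Untreated bone sat within the F-PRT range. The log2 difference was -0.76 (SE 0.23, edgeR adjusted p = 0.0202) for F-PRT and -1.26 (SE 0.23, edgeR adjusted p = 0.00129) for S-PRT. The F-PRT call ended when any of 4 libraries was left out, with adjusted p = 0.0652 without F-PRT 4, 0.054 without Untreated 2, 0.0557 without Untreated 3 and 0.0666 without Untreated 4. Without the libraries that stood apart it was -1.13 (adjusted p = 0.000845).

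Glutamate cysteine ligase makes the first and rate-limiting step of glutathione synthesis, with Gclc as its catalytic and Gclm as its modifier subunit. Gclm in bone read 165, 131, 144 and 116 CPM after F-PRT, 130, 164, 172 and 104 CPM after S-PRT and 246, 203, 196 and 188 CPM in Untreated bone. No irradiated library reached the lowest Untreated one. It fell to 139 ± 20.6 CPM after F-PRT and to 142 ± 31.3 CPM after S-PRT, against 208 ± 25.8 CPM in Untreated bone (SD, n = 4 each), with log2 differences of -0.58 (edgeR adjusted p = 0.0127) and -0.55 (edgeR adjusted p = 0.0199). Without the libraries that stood apart these were -0.47 (adjusted p = 0.124) and -0.45 (adjusted p = 0.066). The S-PRT call also ended without S-PRT 1 (adjusted p = 0.0589), S-PRT 4 (0.0552) or Untreated 1 (0.0619).

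Gclc, the catalytic subunit, did not pass in either tissue with TMM scaling. Its bone libraries read 118, 96.3, 98.8 and 79.7 CPM after F-PRT, 91.6, 114, 123 and 74.5 CPM after S-PRT, and 127, 118, 106 and 109 CPM in Untreated animals. The groups overlapped, with differences of -0.23 (adjusted p = 0.278) and -0.19 (adjusted p = 0.386). In skin Gclc differed by -0.20 after F-PRT (adjusted p = 0.522) and by less than 0.01 after S-PRT (adjusted p = 0.991), and Gclm by -0.30 (adjusted p = 0.343) and -0.15 (adjusted p = 0.647).

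Gsr, glutathione reductase, returns oxidised glutathione to its reduced form with NADPH and showed the lowest adjusted p of the 10 genes in bone. The libraries held 128, 127, 121 and 134 CPM after F-PRT, 142, 100, 117 and 116 CPM after S-PRT, and 193, 306, 337 and 370 CPM in Untreated bone. All irradiated libraries were below all Untreated ones, and library 1 was the lowest of the Untreated group. Gsr fell to 127 ± 5.24 CPM after F-PRT and 119 ± 17.3 CPM after S-PRT, against 301 ± 76.6 CPM in Untreated bone (SD, n = 4 each). The log2 differences were -1.24 (SE 0.17, edgeR adjusted p = 0.000114) and -1.34 (SE 0.17, edgeR adjusted p = 7.19e-05), or 0.422 and 0.394 of the Untreated level. In skin the F-PRT libraries, at 28.6, 23.1, 28.4 and 26.2 CPM, also lay below the Untreated ones, at 37.1, 36.3, 35.1 and 31.1 CPM. That difference of -0.39 did not pass (adjusted p = 0.264), nor did the S-PRT difference of -0.19 (adjusted p = 0.590).

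Markers of blood cells moved in both directions in the same bone libraries. The summed level of 12 neutrophil markers was 603 to 775 CPM after F-PRT and 450 to 1200 CPM after S-PRT, against 3440 CPM in library 1 of Untreated bone and 11000 to 16200 CPM in the other Untreated libraries. All 12 markers fell after either treatment, none being at 0. Of 11 erythroid markers 8 fell after each, and their summed level was 18100 to 27900 CPM after F-PRT and 18600 to 31000 CPM after S-PRT, against 52400 to 77200 CPM in Untreated bone. T and NK cell markers took the other direction, with 7 of 8 rising after F-PRT and 5 of 8 after S-PRT, at summed levels of 92.0 to 118 CPM and 61.3 to 103 CPM, against 29.5 to 74.8 CPM in Untreated bone. Library 1 of Untreated bone had the fewest neutrophil markers of its group. It also had the lowest Gsr, G6pdx, Hmox1, Slc7a11, Txnrd1 and Nqo1 and the highest Me1, Gclm, Gclc and Srxn1 of that group. The part of cell composition in these differences was not tested.

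**Figure D3:**
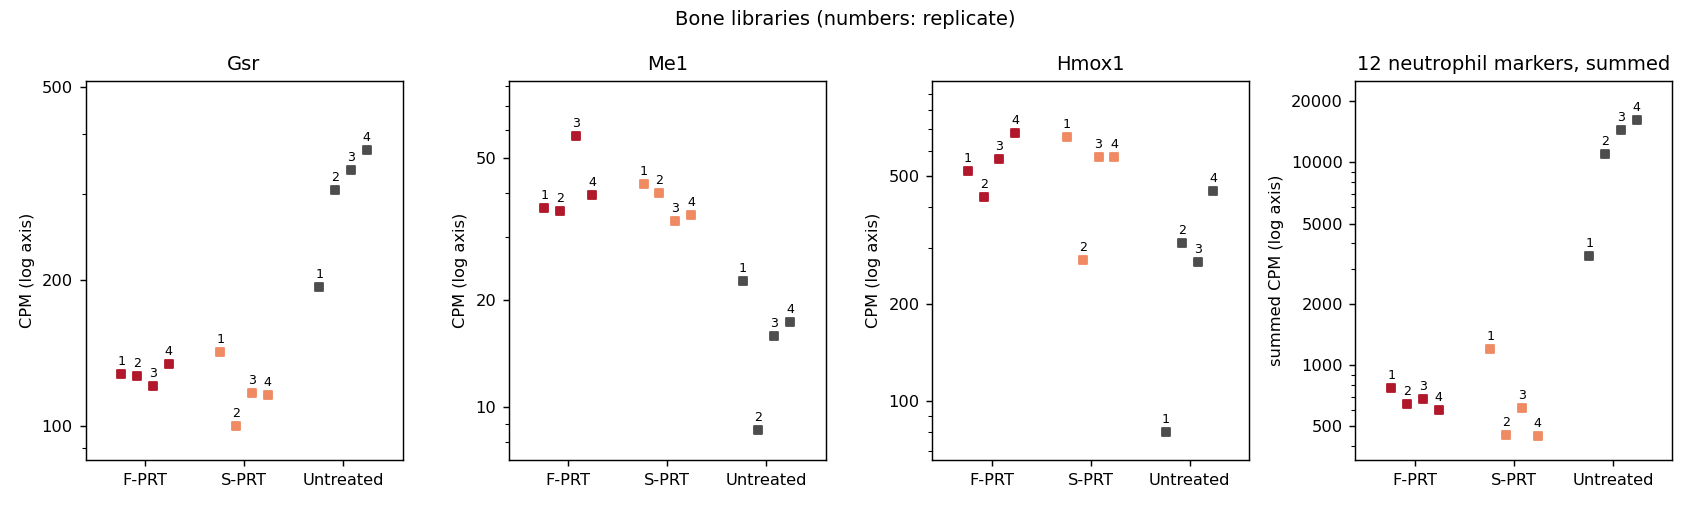
CPM of Gsr, Me1 and Hmox1 and the summed CPM of 12 neutrophil markers in the bone libraries of F-PRT, S-PRT and Untreated animals, each on a log axis, with points numbered by replicate. Irradiated libraries lie between 450 and 1200 CPM of neutrophil markers, and library 1 of Untreated bone, at 3440 CPM, stands between them and the other Untreated libraries, at 11000 to 16200 CPM.

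In the thioredoxin branch, Txnrd1 encodes the cytosolic selenoenzyme that reduces thioredoxin, and Srxn1 encodes sulfiredoxin, which repairs overoxidised peroxiredoxins. Txnrd1 in bone measured 81.0, 81.6, 81.4 and 89.9 CPM after F-PRT, 83.5, 71.4, 83.4 and 79.4 CPM after S-PRT, and 51.1, 66.1, 64.2 and 68.1 CPM in Untreated animals. Every irradiated library was above every Untreated one. The rise was 1.34-fold after F-PRT (log2 0.42, SE 0.10, edgeR adjusted p = 0.0053) and 1.27-fold after S-PRT (log2 0.35, SE 0.10, edgeR adjusted p = 0.0174), and it passed in all 21 alternatives run for each treatment. In skin Txnrd1 lay between 131 and 145 CPM after F-PRT, between 110 and 158 CPM after S-PRT and between 129 and 145 CPM in Untreated animals, with differences of 0.00 (95% interval -0.24 to 0.24) and -0.03.

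Srxn1 passed in neither tissue with TMM scaling and all libraries. Its skin libraries held 36.2, 33.7, 32.9 and 35.8 CPM after F-PRT, 35.6, 35.7, 34.2 and 21.7 CPM after S-PRT, and 41.2, 27.6, 26.4 and 24.2 CPM in Untreated animals. Library 4 of S-PRT skin was low and library 1 of Untreated skin was high, both among the 5 libraries that stood apart. With all libraries the log2 differences were 0.22 (adjusted p = 0.649) and 0.09 (adjusted p = 0.857), and without those that stood apart they were 0.42 (adjusted p = 0.00642) and 0.45 (adjusted p = 0.00429). In bone Srxn1 differed by 0.11 (adjusted p = 0.509) and 0.12 (adjusted p = 0.459).

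Me1, cytosolic malic enzyme, makes NADPH while turning malate into pyruvate and also feeds fatty acid synthesis. In bone it read 36.2, 35.5, 57.7 and 39.5 CPM after F-PRT, 42.3, 40.1, 33.4 and 34.6 CPM after S-PRT, and 22.6, 8.61, 15.9 and 17.4 CPM in Untreated animals. All irradiated libraries lay above all Untreated ones, and library 3 of F-PRT bone was the highest. It rose 2.64-fold after F-PRT (log2 1.40, SE 0.23, edgeR adjusted p = 0.000567) and 2.35-fold after S-PRT (log2 1.23, SE 0.23, edgeR adjusted p = 0.00164), and passed in all 21 alternatives for each. The summed level of 8 adipocyte markers in bone was 678 to 973 CPM after F-PRT and 631 to 921 CPM after S-PRT, against 321 to 490 CPM in Untreated bone. Of the 8, 6 and 7 rose. Within Untreated bone, library 1 had the highest Me1 but the lowest adipocyte sum, at 321 CPM. Other lists rose too, with 7 of 8 osteoclast and 5 of 8 endothelial markers after each treatment. Differentiated keratinocyte markers rose for 9 of 9 tested after F-PRT and 0 of 9 after S-PRT. None of 10 skeletal muscle markers passed. Their sum was highest in library 3 of F-PRT bone (9420 CPM) and lowest in library 2 of Untreated bone (287 CPM), as Me1 was. The part of any of these cells in the Me1 rise was not tested.

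In skin Me1 took the other direction without passing. Its libraries were at 173, 193, 174 and 190 CPM after F-PRT, 206, 209, 167 and 38.5 CPM after S-PRT, and 306, 252, 220 and 250 CPM in Untreated animals. All irradiated libraries were below all Untreated ones, with library 4 of S-PRT skin far below the rest. The differences were -0.49 (SE 0.37, adjusted p = 0.580) and -0.73 (adjusted p = 0.353). The F-PRT value passed once library 4 of S-PRT skin was left out of the shared fit (-0.49, adjusted p = 0.0291). With each skin library left out in turn, its edgeR adjusted p ran between 0.0291 and 0.753. Without all the libraries that stood apart in skin the values were -0.39 (adjusted p = 0.0256) and -0.29 (adjusted p = 0.0686). Sebaceous gland and skin lipid markers, 14 genes, summed to 4090 to 6420 CPM after F-PRT and 1730 to 6870 CPM after S-PRT, against 9510 to 11600 CPM in Untreated skin. Their part in the Me1 values was not tested.

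G6pdx, glucose 6-phosphate dehydrogenase, opens the pentose phosphate pathway and is its main point of NADPH supply. In bone its libraries held 101, 103, 101 and 108 CPM after F-PRT, 122, 66.8, 95.3 and 94.3 CPM after S-PRT, and 67.1, 147, 192 and 214 CPM in Untreated animals. Library 1 of Untreated bone was as low as the lowest irradiated library, so the groups overlapped. The differences of -0.59 (adjusted p = 0.113) and -0.72 (adjusted p = 0.0640) did not pass. Without that library they were -0.82 (adjusted p = 0.00206) and -0.94 (adjusted p = 0.000869). With each bone library left out in turn, the F-PRT difference ran between -0.82 and -0.39 (edgeR adjusted p up to 0.305). The S-PRT difference ran between -0.94 and -0.52 (edgeR adjusted p up to 0.188). In skin the differences were -0.03 (adjusted p = 0.964) and -0.12 (adjusted p = 0.784), and library 1 of Untreated skin, at 123 CPM, was above all others. Ikbkg, on the opposite strand, overlaps G6pdx, and whether reads were counted by strand is not stated.

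Nqo1, the quinone reductase often read as the standard reporter of NRF2, was low, at 4.33 to 9.45 CPM in skin and 5.75 to 11.9 CPM in bone. In bone the libraries were at 8.58, 8.61, 9.68 and 6.47 CPM after F-PRT, 9.36, 8.50, 8.87 and 5.75 CPM after S-PRT, and 10.2, 11.9, 10.7 and 11.1 CPM in Untreated animals. All irradiated bone libraries were below all Untreated ones. The log2 differences of -0.40 (adjusted p = 0.0790) and -0.43 (adjusted p = 0.0630) missed the threshold. The F-PRT value passed without library 4 of S-PRT bone (adjusted p = 0.0395). With each bone library left out in turn, the edgeR adjusted p ran between 0.0395 and 0.212 for F-PRT. For S-PRT it ran between 0.0512 and 0.164. In skin the F-PRT libraries, at 5.91, 4.72, 5.78 and 5.82 CPM, lay below the Untreated ones, at 9.45, 7.57, 6.47 and 8.76 CPM, with a difference of -0.54 (95% interval -1.04 to -0.04, adjusted p = 0.297). For S-PRT skin the difference was -0.40 (adjusted p = 0.413).

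Hmox1, the most abundant of the 10 in bone, varied most in Untreated bone. It measured 518, 431, 564 and 682 CPM after F-PRT and 663, 275, 573 and 575 CPM after S-PRT, against 80.4, 310, 270 and 449 CPM in Untreated bone. Most irradiated libraries were above the Untreated ones, but library 2 of S-PRT bone and library 4 of Untreated bone made the groups overlap. Means were 549 ± 104 CPM after F-PRT and 521 ± 170 CPM after S-PRT, against 278 ± 152 CPM in Untreated bone (SD, n = 4 each), which is 1.97-fold (adjusted p = 0.0707) and 1.88-fold (adjusted p = 0.101). Without library 4 of Untreated bone the log2 differences were 1.31 (adjusted p = 0.0274) and 1.24 (adjusted p = 0.0392). Without library 2 of S-PRT bone the S-PRT one was 1.14 (adjusted p = 0.046). With each bone library left out in turn, the F-PRT difference ran between 0.70 and 1.31 (edgeR adjusted p = 0.0274 to 0.158). The S-PRT difference ran between 0.63 and 1.24 (edgeR adjusted p = 0.0392 to 0.224). In skin Hmox1 read 89.3, 89.3, 105 and 107 CPM after F-PRT, 110, 100, 101 and 35.4 CPM after S-PRT, and 97.9, 65.5, 79.2 and 76.5 CPM in Untreated animals. Library 4 of S-PRT skin was the lowest of all, and library 1 of Untreated skin the highest Untreated one. With all libraries the differences were 0.29 (adjusted p = 0.679) and 0.12 (adjusted p = 0.873), and without those that stood apart 0.41 (adjusted p = 0.0170) and 0.51 (adjusted p = 0.00625). Macrophage and monocyte markers, cells rich in haem oxygenase, summed in bone to 2800 to 3260 CPM after F-PRT and 1770 to 2960 CPM after S-PRT, against 1410 to 4060 CPM in Untreated bone, with library 1 again the lowest Untreated one. Although the sums overlapped, 7 of the 12 markers rose and 2 fell after each treatment in bone, with median log2 differences of 1.09 and 0.93. In skin they summed to 736 to 1130 CPM after F-PRT and to 930 to 1090 CPM in S-PRT libraries 1 to 3 but 176 CPM in library 4, against 211 to 719 CPM in Untreated skin, and none of the 12 passed there. Their part in the Hmox1 values was not tested.

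The scaling bears on every value in bone. TMM scaling kept the median gene in place, whereas on the deposited TPM, tested with limma on log2(TPM + 1), the median of all genes moved by 0.51 after F-PRT and 0.45 after S-PRT. On that scale Me1 and Txnrd1 still passed, and so did Hmox1, at 1.94 (adjusted p = 0.00427) and 1.73 (adjusted p = 0.00966). Gclc (0.44, adjusted p = 0.0340) and Srxn1 (0.57, adjusted p = 0.0332) passed as well after F-PRT, so that 5 of the 10 rose and none fell after F-PRT, and 3 rose and none fell after S-PRT. Over all genes tested, 11330 rose and 542 fell after F-PRT and 10391 rose and 547 fell after S-PRT on that scale, against 2925 rising and 3236 falling and 2512 rising and 2868 falling with TMM scaling. In skin the split moved too, to 110 rising and 34 falling after F-PRT and 197 rising and 67 falling after S-PRT, against 191 rising and 264 falling and 348 rising and 479 falling with TMM scaling. Gsr, at -0.25 and -0.37, and Slc7a11, at -0.10 and -0.19, no longer passed, and Gclm turned to 0.12 and 0.06. Relative to the shift of all genes, Gsr stood at -0.76 and -0.82, Slc7a11 at -0.61 and -0.64, Gclm at -0.39 and -0.39, Txnrd1 at 0.58 and 0.52, and Me1 at 1.37 and 1.16. The directions given for bone are thus relative to the other genes of the same libraries.

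F-PRT was then set directly against S-PRT, the question named in the title of the study. None of the 10 genes passed in skin (adjusted p = 0.999 for each) or in bone (adjusted p = 1 for each). Of all genes tested, 0% passed in skin and 0.00531% in bone with edgeR, at an unadjusted p under 0.05 in 522 and 634 genes, and DESeq2 called 2 and 21 genes. In skin the widest interval was that of Me1, with a log2 difference of 0.23 (95% interval -0.56 to 1.03), next to Slc7a11 at -0.28 (95% interval -1.05 to 0.49), and the narrowest that of Txnrd1, at 0.03 (95% interval -0.21 to 0.27). In bone they ran between Hmox1, at 0.07 (95% interval -0.76 to 0.91), and Txnrd1, at 0.07 (95% interval -0.14 to 0.28). With TMM scaling, Slc7a11 in bone was the only gene of the 10 with groups that did not overlap. All its F-PRT libraries, at 4.73 to 7.61 CPM, were above all S-PRT libraries, at 3.73 to 4.49 CPM. That difference was 0.51 (95% interval 0.00 to 1.01, unadjusted p = 0.0486). On the TPM scale the Slc7a11 libraries of bone overlapped, at 0.76 to 1.11 TPM after F-PRT and 0.59 to 0.91 TPM after S-PRT. Their difference on log2(TPM + 1) was 0.09. The share of all genes with groups apart in this way was not counted, so the Slc7a11 separation has no background to be read against. The intervals of Slc7a11, Me1 and Hmox1 are wide, so the 2 treatments are not shown to act alike on these genes.

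**Figure D4:**
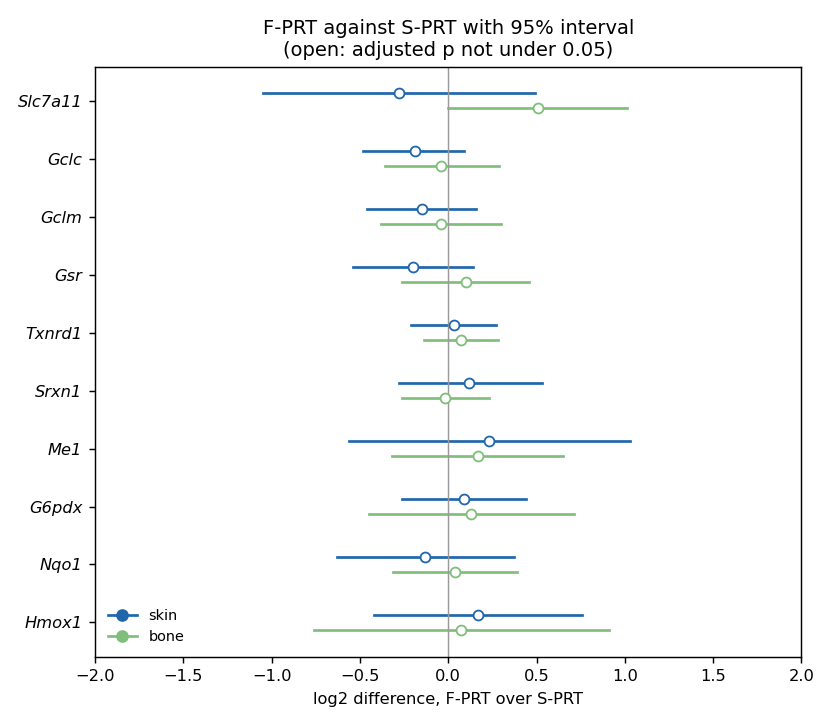
Log2 difference between F-PRT and S-PRT for each of the 10 genes with its 95% interval, in skin and in bone. Each interval includes 0 or touches it, and Txnrd1 has the narrowest in both tissues.

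Skin and bone differed in these genes before any treatment. In Untreated animals 9 of the 10 genes passed between skin and bone, 4 higher in skin and 5 higher in bone, where 65.2% of all genes tested passed. Me1 averaged 265 ± 40.9 CPM in Untreated skin and 15.4 ± 5.29 CPM in Untreated bone (SD, n = 4 each, all 24 libraries scaled together), a 17.3-fold difference (edgeR adjusted p = 2.23e-09). Slc7a11 averaged 31.0 ± 19.0 CPM in Untreated skin and 9.61 ± 3.13 CPM in Untreated bone, and Txnrd1 141 ± 9.04 and 59.9 ± 8.05 CPM in the same groups. On the bone side were Gsr, at 36.0 ± 2.97 CPM in Untreated skin and 290 ± 75.1 CPM in Untreated bone (log2 -3.01, edgeR adjusted p = 2.7e-12), and Gclm, at 36.5 ± 4.69 CPM in Untreated skin and 200 ± 22.7 CPM in Untreated bone (log2 -2.45, edgeR adjusted p = 1.2e-11). Gclc, Hmox1 and G6pdx were also higher in bone, at log2 -1.44, -1.70 and -0.73, with the libraries of Hmox1 and G6pdx overlapping. Srxn1 was higher in skin, at 0.81, and Nqo1 did not pass (-0.34, adjusted p = 0.148). The G6pdx call ended without library 4 of Untreated bone (-0.54, adjusted p = 0.0697), and the Srxn1 call on the TPM scale (0.27, adjusted p = 0.477).

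The effect of irradiation itself differed between the tissues for 3 genes after F-PRT and 2 after S-PRT, tested as an interaction over the 24 libraries, where 10.7% and 9.45% of all genes passed. The skin effect minus the bone effect was -1.92 for Me1 after F-PRT (SE 0.47, edgeR adjusted p = 0.0108) and -1.97 after S-PRT (SE 0.47, edgeR adjusted p = 0.00922). For Gsr it was 0.83 (edgeR adjusted p = 0.0290) and 1.13 (edgeR adjusted p = 0.0037). For Slc7a11 it was -1.45 after F-PRT (95% interval -2.38 to -0.52, edgeR adjusted p = 0.0406) but -0.65 after S-PRT (95% interval -1.59 to 0.28, adjusted p = 0.434). The Me1 differences passed in all 33 alternatives run for each treatment. That of Gsr after F-PRT passed in 21 of 33 alternatives, and that of Slc7a11 in 19 of 33. Without the libraries that stood apart, 12.4% and 17% of all interactions passed in edgeR. That of Slc7a11 after F-PRT then did not (-1.25, adjusted p = 0.087). For G6pdx the interactions with all libraries were 0.54 (adjusted p = 0.366) and 0.58 (adjusted p = 0.351). Without those that stood apart they passed, at 1.00 (adjusted p = 0.0106) and 1.13 (adjusted p = 0.00185). The Slc7a11 value fell short when any of 11 libraries was left out, F-PRT 1 to 3 and Untreated 1 to 3 of bone and F-PRT 1 to 4 and Untreated 2 of skin, at -0.94 (adjusted p = 0.117) without the last of these and at adjusted p = 0.0531 to 0.0926 otherwise. The Gsr value fell short without F-PRT 1 to 3 or Untreated 2 to 4 of bone, or F-PRT 1, F-PRT 3 or Untreated 4 of skin, at adjusted p = 0.0517 to 0.0725. Of the interactions that passed over all genes, 385 were positive and 2424 negative after F-PRT on the TPM scale, and 394 and 1245 after S-PRT, against 968 and 1244 and 1029 and 932 with TMM scaling. On the TPM scale the Gsr interactions were 0.10 after F-PRT (adjusted p = 0.897) and 0.34 after S-PRT (adjusted p = 0.670). Txnrd1, which rose in bone, had interactions of -0.44 (adjusted p = 0.0787) and -0.39 (adjusted p = 0.130), so its rise is not shown to be particular to bone, though the F-PRT value passed without library 4 of S-PRT skin (-0.44, adjusted p = 0.0392).

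For each gene that passed against Untreated tissue, the genes with the nearest pattern were sought by the root mean square difference of centred log2 CPM over the 12 libraries of the tissue. Nearest to Slc7a11 in skin were Cfap69 at 0.29, Gk at 0.405 and Pglyrp2 at 0.442, beside a spread of 1.009 of Slc7a11 around its own mean. Nearest to Slc7a11 in bone were Il31ra at 0.126, Cpne3 at 0.182 and Megf9 at 0.182. Gsr in bone was followed most closely by Arrb2 at 0.092, Fam217b at 0.094 and Ccdc88b at 0.096. Me1 in bone had Tead1 at 0.192, Ppp1r3c at 0.192 and Bcam at 0.207. Gclm had March8 at 0.061, Atad2 at 0.065 and Ncapd3 at 0.067, and Txnrd1 had Bahd1 at 0.055, Btd at 0.068 and Washc5 at 0.072.

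The regulators of the pathway were read in the same comparisons. Nfe2l2, which encodes NRF2 itself, differed by 0.01 after F-PRT and 0.02 after S-PRT in skin, and by 0.06 and -0.08 in bone, and passed nowhere. Keap1, its inhibitor, differed by -0.33, 0.02, -0.04 and -0.07 in the same order and did not pass either. NRF2 is controlled mainly by protein stability, which RNA does not show. Of the 10 regulators tested, none passed in skin, while 1 rose and 2 fell after F-PRT and 1 rose and 3 fell after S-PRT in bone, whereas on the TPM scale 7 and 6 rose there and none fell. These counts are near the shares of all genes tested. Those were 2.39% and 4.34% in skin, 32.7% and 28.5% in bone, and 63% and 58% in bone on the TPM scale. The same shares apply beside the counts of each list below. Mafg, a small MAF partner of NRF2, fell to 64.2 ± 3.65 CPM after F-PRT and 74.5 ± 8.23 CPM after S-PRT, against 121 ± 5.41 CPM in Untreated bone (SD, n = 4 each), and Mafk fell by 0.46 and 0.55 on the log2 scale. Nfe2l1, a relative of NRF2 known for proteasome genes, rose by 0.50 and 0.48. Bach1, the repressor, fell after S-PRT in bone (-0.29, edgeR adjusted p = 0.00894) and differed by -0.06 after F-PRT (adjusted p = 0.588).

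Ephx1, microsomal epoxide hydrolase, rose in all 4 comparisons and under each of the alternatives run. It averaged 213 ± 19.5 CPM after F-PRT and 241 ± 42.0 CPM after S-PRT, against 71.6 ± 22.6 CPM in Untreated skin (SD, n = 4 each). In bone it averaged 104 ± 11.6 CPM after F-PRT and 104 ± 14.1 CPM after S-PRT, against 22.9 ± 4.03 CPM in Untreated animals. The log2 rises were 1.57 and 1.75 in skin (edgeR adjusted p = 0.00109 and 0.000345) and 2.17 and 2.18 in bone (edgeR adjusted p = 3.78e-07 and 3.35e-07), and no irradiated library overlapped an Untreated one. In the list of 14 quinone, carbonyl and drug detoxification genes, 1 rose and 1 fell after F-PRT in skin and 1 rose and 2 fell after S-PRT, where Abcc4, an exporter of conjugates, fell by 0.65 and 0.68 and Cbr1, a carbonyl reductase, fell by 0.97 after S-PRT. In bone 4 rose and 3 fell after F-PRT and 3 rose and 3 fell after S-PRT, and on the TPM scale 7 and 6 rose and none fell. Abcc2, another exporter, fell there to 0.812 CPM after F-PRT and 0.662 CPM after S-PRT, against 3.25 CPM in Untreated bone, and Ptgr1, which reduces reactive alkenals, fell by 1.48 and 1.40 on the log2 scale.

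Glutathione using enzymes moved in both directions in bone. Of 24 tested there, 8 rose and 3 fell after F-PRT and 7 rose and 4 fell after S-PRT, with a median of 0.28 and 0.31. On the TPM scale 15 rose and 1 fell after F-PRT and 16 rose and 1 fell after S-PRT. Mgst2, a microsomal glutathione transferase, fell to 4.87 ± 0.697 CPM after F-PRT and 4.75 ± 0.893 CPM after S-PRT, against 22.4 ± 6.21 CPM in Untreated bone (SD, n = 4 each). Gpx1, the abundant glutathione peroxidase of the cytosol, fell to 488 ± 102 CPM after F-PRT and 536 ± 101 CPM after S-PRT, against 1010 ± 63.2 CPM in Untreated bone. Gpx7 rose by 0.99 and 0.98, Gstm2 by 1.17 after F-PRT, and Gpx3, the secreted peroxidase, by 1.09 after S-PRT. In skin none of 27 passed after F-PRT and 2 fell after S-PRT, Mgst1 (-1.66, edgeR adjusted p = 0.00262) and Gpx4 (-0.74, edgeR adjusted p = 0.0413). Mgst1 is also on the list of sebaceous and skin lipid markers, of which 1 of 14 fell after F-PRT and 9 of 14 after S-PRT.

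Among 11 NADPH supply genes tested beside Me1 and G6pdx, 6 fell in bone after each treatment, 1 rose after F-PRT and none after S-PRT, whereas on the TPM scale none fell and 5 rose after each. The medians with TMM scaling were -0.32 and -0.40, and in skin 1 of the 11 fell after each treatment. Pgd, which makes NADPH in the oxidative pentose phosphate pathway, averaged 89.5 ± 8.93 CPM after F-PRT and 83.0 ± 15.6 CPM after S-PRT, against 179 ± 59.5 CPM in Untreated bone (SD, n = 4 each), with the Untreated libraries overlapping the others. Pgls, the step between G6pdx and Pgd, fell by 0.70 and 0.79, and Rpia, Rpe and Taldo1 of the non-oxidative arm were among the others that fell. Idh1, cytosolic isocitrate dehydrogenase, took the other direction, rising by 0.49 after F-PRT in bone and falling by 0.58 and 0.74 in skin.

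Thioredoxin and peroxiredoxin genes, 15 in number, gave 3 rising and 5 falling in bone after F-PRT and 2 rising and 4 falling after S-PRT, and in skin none after F-PRT and 2 falling after S-PRT. On the TPM scale the bone counts were 8 rising and none falling after F-PRT and 8 rising and 1 falling after S-PRT. Prdx1, a cytosolic peroxiredoxin, rose by 0.76 after F-PRT in bone and fell by 0.50 after S-PRT in skin. Msra, which reduces oxidised methionine, fell by 1.62 and 1.76 in bone, and Msrb3 rose by 0.86 and 0.75. Of the 4 superoxide dismutases and catalase, Sod3, the extracellular enzyme, rose by 1.25 and 1.28 in bone and Sod2, the mitochondrial one, by 0.53 and 0.48, while Cat fell by 0.29 and 0.36 (on the TPM scale 3 of the 4 rose after each treatment and none fell). None of the 4 passed in skin with all libraries. Among 9 haem and iron genes none passed in skin with all libraries, and 1 rose and 1 fell in bone after each treatment, against 6 rising and none falling after each on the TPM scale. Fech, whose enzyme inserts iron to form haem, fell by 0.90 and 0.76, beside the falls of erythroid markers given above. Blvra, biliverdin reductase, rose by 0.56 and 0.36.

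Cystine supply and ATF4 genes were read because Slc7a11 is also a target of ATF4. Of 12 in skin, 1 rose and 1 fell after each treatment, and of 11 tested in bone 2 rose after F-PRT and 1 after S-PRT, against 9 and 7 on the TPM scale. Atf4 itself averaged 98.4 ± 5.73 CPM after F-PRT and 95.1 ± 2.00 CPM after S-PRT, against 138 ± 19.6 CPM in Untreated skin (SD, n = 4 each; log2 -0.49, edgeR adjusted p = 0.0320, and -0.53, edgeR adjusted p = 0.0133). Sesn2, a sestrin that is also a p53 target, rose by 0.86 and 1.00 in skin and by 0.73 and 0.70 in bone. Medians of this list in skin were -0.49 and -0.35. Slc3a2, the heavy chain that pairs with xCT, differed by -0.39 after F-PRT (adjusted p = 0.149) and by -0.30 after S-PRT in skin (adjusted p = 0.228).

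**Figure D5:**
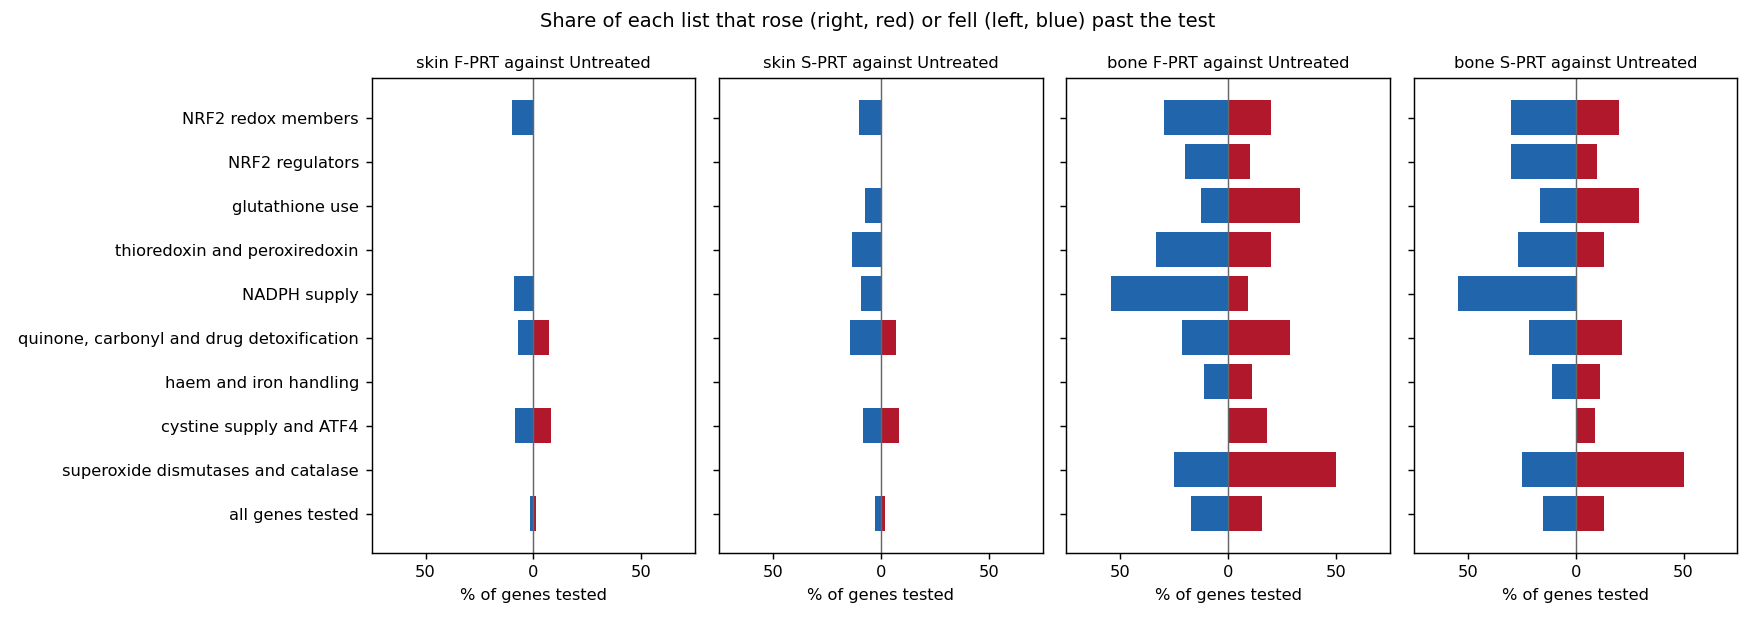
Share of the tested genes of each pathway list that rose (right of 0) or fell (left of 0) past an adjusted p of 0.05 in each comparison with Untreated tissue, in percent, beside all genes tested. In skin few genes of any list passed, and in bone, with TMM scaling, the NADPH supply list shows 6 falls after each treatment (none on the TPM scale) and the glutathione list 8 and 7 rises.

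Several of these counts moved without the libraries that stood apart. In skin the 10 genes then gave 2 rising and 2 falling after F-PRT and 2 rising and 1 falling after S-PRT, where 14% and 23.4% of all genes tested passed, and the haem and iron list gave 2 rising and 1 falling and 5 rising and 1 falling. The glutathione list in skin gave 3 rising and 2 falling after F-PRT and 4 rising and 2 falling after S-PRT. In bone the 10 genes gave 2 rising and 3 falling after each treatment, where 23.9% and 29.9% of all genes tested passed, with G6pdx among the falls in place of Gclm, and NADPH supply gave 6 falling. On the TPM scale, of the pathway genes named as falling in bone, only Mgst2 after both treatments and Msra after S-PRT still fell past the test. In skin none of the named pathway falls passed on that scale, while Ephx1 rose after both treatments and Sesn2 after S-PRT. The single skin calls of Idh1, Atf4 and Sesn2 after F-PRT and of Gpx4 and Prdx1 after S-PRT, and those of Shmt2, Cat and Blvra in bone, each ended under 5 or more of the 21 alternatives in at least 1 comparison. Without the libraries that stood apart, Mafk and Idh1 no longer passed in F-PRT bone (adjusted p = 0.0763 and 0.0818). In skin the Abcc4 call after F-PRT ended without F-PRT 1 or F-PRT 3, and the Msra and Atf4 calls after S-PRT ended without Untreated 2.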

How the data were processed

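The authors deposited, per library, expected counts and TPM per gene; per the submitters' processing notes the tools were FastQC, cutadapt, STAR and RSEM on GRCm38, with no versions, strand setting or annotation given. Expected counts are estimates that share reads between overlapping or similar genes. Of 55471 gene identifiers, 55230 (99.57%) matched GENCODE M21, from which symbols and positions were taken. The deposited expected counts were rounded to whole numbers and tested with edgeR 4.0.16 (quasi-likelihood F test, TMM scaling, filterByExpr) in R 4.3.3, with the 3 groups of a tissue in 1 fit (12 libraries) and all 24 libraries for comparisons between tissues. P-values were adjusted by Benjamini-Hochberg over all genes tested, at a threshold of 0.05. CPM are TMM-scaled rounded counts scaled to library size, and log2 CPM used a prior count of 2. The deposited TPM are per length, and were used for the order of levels and, as log2(TPM + 1), in limma 3.58.1. Intervals are 95% intervals of the fitted difference.

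Other alternatives were RLE scaling, voom in limma with weights for library quality, DESeq2 1.42.0, other filters, a replicate block, only the 8 libraries compared, each library left out, and 5 libraries in doubt left out. The block by treatment and number and the alternatives for pathway lists were added after seeing the data. Libraries of 1 group differed by more than sampling noise (chi-square per degree of freedom 9.54 to 210), so none was counted as a repeat of another. Same-numbered libraries of skin F-PRT and S-PRT deviated together, with correlations of 0.13 to 0.50 over the 4 pairs. The labels state no pairing, and whether these libraries were paired was not tested. In no other pair of groups did every pair exceed 0.1, and those of Untreated skin and Untreated bone ran at -0.57 to -0.18. Separate animals are not stated beyond the word biological, so p-values measure the spread between these libraries. A simulation tested 18782 genes in skin and 18559 in bone, with the real library sizes and 1 mean per gene over the 3 groups. Of these, 99 genes in skin F-PRT and 97 in bone F-PRT were changed 4-fold, and 99 and 100 were changed 2-fold. The fit returned 77.8% and 91.8% of the 4-fold changes, and 33.3% and 59% of the 2-fold ones. No outlying library was simulated, and the real bone F-PRT fit called 32.7% of all genes tested. These rates therefore do not describe the reported tests. The 10 genes, the pathway lists and the markers were chosen with earlier results of these data known. All 10 were named in each comparison, and from each pathway list at most the 4 genes of smallest p past the test, with Nfe2l2, Keap1 and Bach1 always read. Slc3a2 was named outside this rule, after its values were seen. Nnt was left out because 2 overlapping gene models split its reads. Nearest patterns are the 3 genes with the smallest root mean square difference.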

Additional observations from a re-analysis of the deposited data

Results flagged for a closer look

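In 5 of 60 groups of 4 libraries, 1 library lay far from the other 3 by Dixon's criterion, where chance gives about 1 in 20 groups. Library 2 of F-PRT skin was lowest for Nqo1 at 4.72 CPM, and library 4 of F-PRT bone was highest for Txnrd1 at 89.9 CPM. Library 4 of S-PRT skin, which held few fibroblast and endothelial markers, was lowest for Hmox1 at 35.4 CPM and for Srxn1 at 21.7 CPM. Library 1 of Untreated skin was highest for G6pdx at 123 CPM.

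The response to irradiation of some of the 10 genes differed between skin and bone in an interaction test. The skin effect minus the bone effect on the log2 scale was -1.45 for Slc7a11, 0.83 for Gsr and -1.92 for Me1 after F-PRT. After S-PRT it was 1.13 for Gsr and -1.97 for Me1. Only the Me1 values passed in all 33 alternatives. After F-PRT the Gsr value passed in 21 of 33 and the Slc7a11 value in 19 of 33. On the TPM scale the Gsr values were 0.10 and 0.34 and did not pass. Neutrophil markers fell in bone for 12 of 12 genes after either treatment, and their part in these differences was not tested.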

How the results depend on the processing

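Of 2250 values of single genes under the alternatives, 2162 had the same direction and side of the threshold or a difference that passed neither way, 46 no longer passed, 39 newly passed and 3 reversed. The reversals were on the TPM scale in bone, with Gclc at 0.44 and Gclm at 0.12 after F-PRT and Gclm at 0.06 after S-PRT. Of the 10 genes, 1 passed in skin F-PRT, 3 with voom, 0 on the TPM scale, 4 without the libraries in doubt, 2 with the 8 libraries compared and 1 to 2 with 1 library left out. In skin S-PRT 1 passed, 2 with voom, 0 on the TPM scale, 3 without the libraries in doubt, 0 with the 8 libraries and 1 with any library left out. In bone F-PRT 5 passed, 8 with voom and 4 to 6 with 1 library left out. In bone S-PRT 5 passed, 3 on the TPM scale and 4 to 6 with 1 library left out. Of the tissue interactions, 3 passed for F-PRT, 5 with voom and 1 to 4 with 1 library left out, and 2 for S-PRT, 1 on the TPM scale and 2 to 3 with 1 library left out. Between Untreated tissues 9 passed and 8 to 9 with 1 library left out.

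Outside skin F-PRT against S-PRT, same-numbered deviations did not all correlate above 0.1, running between -0.57 and 0.41. In skin F-PRT against S-PRT, where they did, the block left 0 of the 10 genes and 0 of all genes past the test, as without it, and changed no call. In the other comparisons with the replicate block, Slc7a11 no longer passed the F-PRT interaction (-1.35, adjusted p = 0.0705) and Nqo1 passed in S-PRT bone (-0.46, adjusted p = 0.0471). The block took the genes called in skin F-PRT to 299, against 455 without it. A block by treatment and number across tissues left 1 of the 3 F-PRT interactions.

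Counts over all genes in skin F-PRT were 455 in the reported fit, 940 with DESeq2, 2623 with voom, 144 on the TPM scale, 2704 without the libraries in doubt and 1215 with the 8 libraries. In skin S-PRT they were 827, 1487, 3102, 264, 4509 and 305 in the same order. With 1 library left out, skin F-PRT gave 216 to 258 genes without any F-PRT library or Untreated 2 and 1477 without S-PRT 4, and skin S-PRT gave 452 to 539 without S-PRT 1, Untreated 2 or Untreated 3, 1279 without Untreated 1 and 2270 without S-PRT 4. Between F-PRT and S-PRT bone gave 1 gene, 21 with DESeq2, 11 with no filter and 0 with the replicate block, on the TPM scale, with the 8 libraries or with any of 10 libraries left out. On the TPM scale bone gave 11872 genes for F-PRT and 10938 for S-PRT, against 6161 and 5380. F-PRT interactions numbered 2212, 4203 with voom and 1236 with the block by treatment and number, and S-PRT interactions 1961, 3460, 1090 and, without the libraries in doubt, 3655. Depth limits Slc7a11, Nqo1 and Me1 most, whose counts reached as low as 49, 74 and 113. The cause of these shifts was not tested.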
